A study of Mus musculus with 6 samples.

Results

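The genes of glycolysis and of the hypoxia response are described here as 36 genes, chosen as a list of enzymes, transporters and known targets of the hypoxia-inducible factor HIF, out of 49328 genes in a table of RNA sequencing values. The table held 37 entries for these symbols, because Aldoa is listed under 2 identifiers, and 35 of the 36 genes were high enough to be tested, out of 11862 genes tested in all. The libraries came from cultured mouse cells labelled as mesenchymal stromal cells (MSCs, the plastic-adherent stroma of marrow), and were isolated from digested, unfractionated marrow of CB6F1 mice with acute graft-versus-host disease (aGVHD), an attack of donor immune cells on the recipient. Of the libraries, 3 were from cells given a compound labelled R (0.5 um, as labelled), and 3 from cells given the vehicle DMSO. All shared the strain, the disease of the source mice and a high-glucose medium with serum. What R is, how long it was given, the age of the mice and whether replicates came from separate animals are not stated in the labels, so the p-values measure only the spread between these libraries.

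Glycolysis splits glucose into pyruvate in a fixed order of enzymes, and lactate dehydrogenase and the monocarboxylate carriers dispose of pyruvate as lactate. HIF is a transcription factor whose alpha subunit is marked for destruction by prolyl hydroxylases when oxygen is present, so its activity is set mainly at the protein level, and it induces most glycolytic genes together with genes of mitophagy, collagen folding and pH control. In macrophages, activation by interferon and microbial products is also known to raise glycolysis, and marrow stromal cells are known to rely on it in the low oxygen of their niche.

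Levels are given in FPKM, a read number scaled to gene length and library size. The libraries had an estimated 17070000 to 21750000 reads. Macrophage markers were abundant in every library, led by Lyz2, with a summed level over 21 listed genes of 18490, 15858 and 14670 FPKM in R, against 24159, 20236 and 18089 FPKM in vehicle, and 0 of them were under 1 FPKM in all libraries. Stromal markers summed to 1950, 1823 and 2102 FPKM in R, against 1036, 1556 and 1449.9 FPKM in vehicle. By group mean they were led by Sparc and Col1a1 in R and by Sparc and Itgb1 in vehicle. Of the stromal markers, 4 of 18 (Nt5e, Lepr, Dcn and Lum) stayed under 1 FPKM in every library. Of the 13 stromal markers tested, 1 rose (Sparc), 1 fell (Ly6a) and 11 did not pass, with 6 negative and 7 positive log2 changes and a median of 0.06. In limma the call of Sparc ended without R replicate 1, 2 or 3 or vehicle replicate 2 (adjusted p up to 0.13). That of Ly6a ended without vehicle replicate 2 (adjusted p = 0.053). The cultures carried much macrophage RNA beside stromal RNA and lacked several defining stromal transcripts. Markers of other marrow cells were lower, summing to between 59.0 and 113 FPKM in R, against 77.4 to 173 FPKM in vehicle, most of it Pf4, and 9 of the 16 listed genes found in the table were under 1 FPKM in all libraries. Vehicle replicate 3 stood apart from the other vehicle libraries in these genes. It was the vehicle library nearest to the R mean in 24 of the 35 tested members (68.6%), against 47.1% of all tested genes.

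Among the 35 tested members, 10 fell and 1 rose at an adjusted p under 0.05 in limma (24 did not pass), a share of 28.6% lower and 2.9% higher. Over all tested genes 6.82% were called, 4.43% lower and 2.39% higher. The falls were 6 enzymes (Hk2, Pfkl, Tpi1, Pgk1, Pgam1 and Ldha), 3 genes of pyruvate and lactate handling or pathway control (Slc16a3, Pdk1 and Pfkfb3) and 1 HIF target outside glycolysis (Bnip3), and the rise was Ldhb. In 24 of the 35 (68.6%) all R libraries lay below all vehicle libraries, and in 2 (5.7%) above. The shares over all tested genes were 15.5% and 13.9%. By list, all R libraries lay below all vehicle libraries in 13 of 17 enzymes (76.5%), 5 of 6 genes of transport and regulation (83.3%) and 5 of 11 tested HIF targets outside glycolysis (45.5%). Of these lists, 6 enzymes fell and 10 did not pass, 3 genes of transport and regulation fell and 3 did not pass, and 1 HIF target fell and 10 did not pass. Egln3, counted among the 5 HIF targets and the 24 members without overlap, was high enough to be tested only through the vehicle libraries. Its lack of overlap was thereby fixed. The 17 enzymes had a median log2 change of -0.44, the 6 genes of transport and regulation -0.56, the 11 tested HIF targets outside glycolysis -0.06, and all tested genes -0.004, where a log2 change is R minus vehicle of log2(FPKM + 1). The median of the HIF targets outside glycolysis was -0.24 without vehicle replicate 3 and 0.006 without vehicle replicate 1. The difference between the lists was not tested. Fewer cells of a type and less RNA per cell cannot be told apart in bulk RNA, and 6 of the 21 macrophage markers fell as well (28.6%, list median -0.53). In 14 of the 21 (66.7%) all R libraries lay below all vehicle libraries, shares close to those of the members. Mitochondrially encoded transcripts summed to 15999, 15401 and 16380 FPKM in R, against 12387, 11634 and 13114 FPKM in vehicle, without overlap. The part of the macrophage RNA and of the mitochondrial RNA in the changes below was not tested. The calls rested on few libraries. The number of members called was 3, 5 and 4 without R replicates 1, 2 and 3, 1 and 2 without vehicle replicates 1 and 2, and 13 without vehicle replicate 3. Slc16a3 alone was called whichever library was left out.

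**Figure D1:**
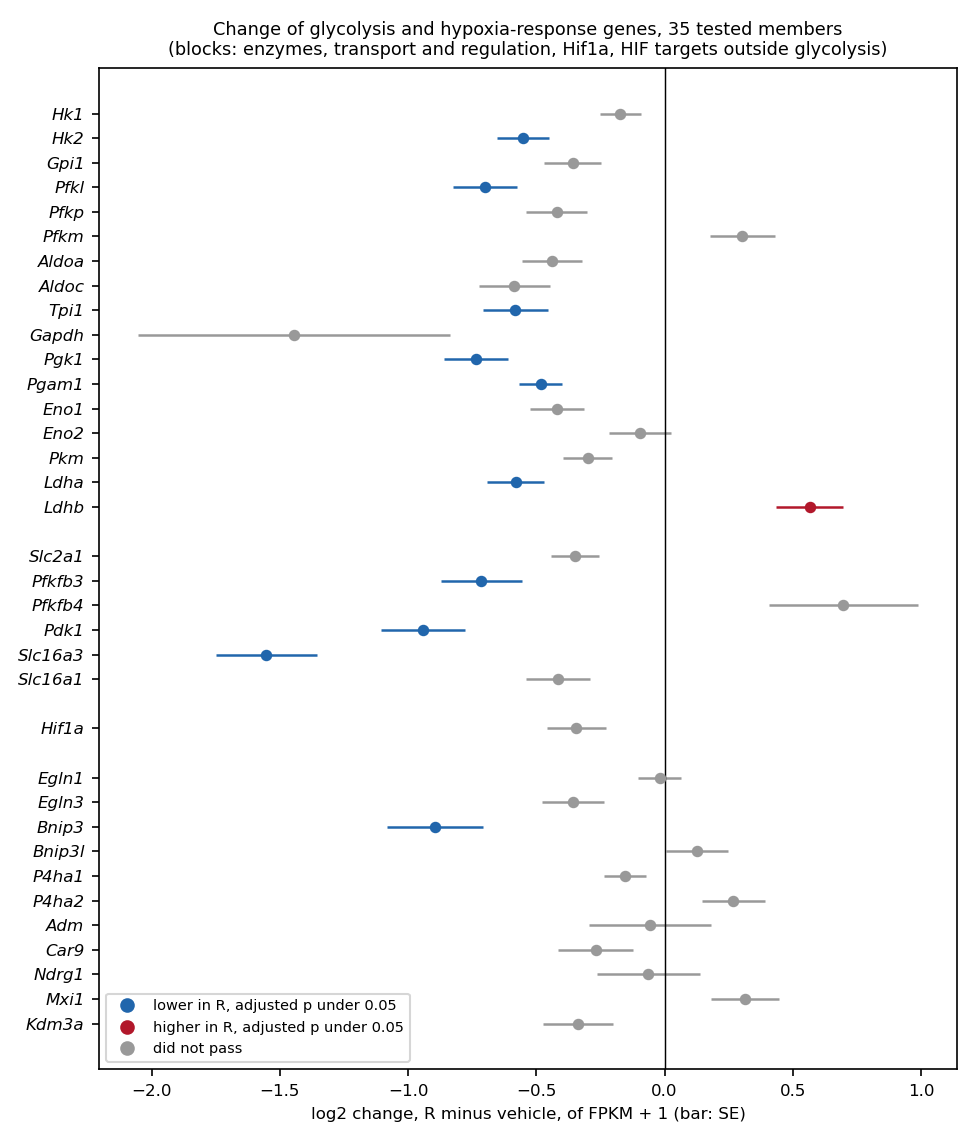
Log2 change of FPKM + 1, R minus vehicle, for the 35 tested members in blocks by role, with each bar the moderated SE of limma. Enzymes and regulators lie mostly left of zero (20 of 23), and so do 8 of the 11 HIF targets outside glycolysis, of which Bnip3 (-0.89) lies farthest from it.

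The sequence just before the transcription start is shown for 5 members that fell and 3 HIF targets that did not pass or were too low to test. All are textbook HIF targets, with different outcomes in the test. Ankrd37, too low to test, had all R values below all vehicle values, as the 5 members that fell did. HIF binds the core ACGTG or GCGTG, searched here on both strands (as CACGT or CACGC on the other), and CACGTG holds the core on both strands and is also the E-box of the MYC family. Promoters from RefSeq, build GRCm38.p6, running from 250 bases before the start to 50 after it, were found for 34 of the 36 genes, 51 promoters in all. The core was present in 40 of the 51 (78.4%) and in 43.8% of all 32851 promoters. It was present in 11 of the 13 promoters of the genes that fell (84.6%) and in 27 of the 36 promoters of the genes that did not pass (75.0%). Some genes have several promoters, which can overlap. By gene, 9 of the 10 that fell had the core in at least 1 promoter. So did 20 of the 22 genes with a promoter that did not pass. The enzymes had it in 21 of 28 promoters (75.0%, 14 of 17 genes). The HIF targets outside glycolysis had it in 11 of 14 (78.6%, 10 of 10 genes). Tpi1 was the member that fell with no core in this window. The 160 bases before the start are given 5′ to 3′ on the strand of the gene, with each core in capitals. The genes that fell are Slc16a3 (chr11:120948907-120949066, plus strand), Pdk1 (chr2:71873064-71873223, plus), Pgk1 (chrX:106186940-106187099, plus), Ldha (chr7:46845644-46845803, plus) and Bnip3 (chr7:138909507-138909666, minus). The others are Ankrd37 (chr8:45999851-46000010, minus, too low to test), Egln1 (chr8:124949255-124949414, minus) and P4ha2 (chr11:54100764-54100923, plus). Each of the 8 holds at least 1 core, with 5 matches in Ldha and in Bnip3, and 1 in Pdk1, where each CACGTG counts as 2 matches. For a gene with several promoters, the one with the most matches in these bases was shown, a choice that favours finding a core. The other promoter of Pdk1 (chr2:71874654-71874953) had 0 matches.
Slc16a3: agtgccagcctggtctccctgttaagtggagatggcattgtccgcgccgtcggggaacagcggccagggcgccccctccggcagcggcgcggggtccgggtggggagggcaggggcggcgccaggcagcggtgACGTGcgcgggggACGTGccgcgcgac
Pdk1: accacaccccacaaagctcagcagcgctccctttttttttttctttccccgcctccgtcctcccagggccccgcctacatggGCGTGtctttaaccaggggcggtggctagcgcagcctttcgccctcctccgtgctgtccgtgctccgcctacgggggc
Pgk1: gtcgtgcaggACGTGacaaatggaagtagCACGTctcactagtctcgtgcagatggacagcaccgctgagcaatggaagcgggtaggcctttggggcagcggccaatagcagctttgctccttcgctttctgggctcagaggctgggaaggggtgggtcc
Ldha: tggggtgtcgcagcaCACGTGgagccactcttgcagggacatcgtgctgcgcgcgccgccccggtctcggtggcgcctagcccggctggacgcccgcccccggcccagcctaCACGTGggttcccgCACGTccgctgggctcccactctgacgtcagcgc
Bnip3: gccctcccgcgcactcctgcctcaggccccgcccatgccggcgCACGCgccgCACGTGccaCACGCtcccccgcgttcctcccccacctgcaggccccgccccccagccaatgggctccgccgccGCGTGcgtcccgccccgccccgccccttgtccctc
Ankrd37: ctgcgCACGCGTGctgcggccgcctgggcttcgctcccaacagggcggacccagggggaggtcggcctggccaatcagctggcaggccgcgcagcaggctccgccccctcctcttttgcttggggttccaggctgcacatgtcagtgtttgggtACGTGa
Egln1: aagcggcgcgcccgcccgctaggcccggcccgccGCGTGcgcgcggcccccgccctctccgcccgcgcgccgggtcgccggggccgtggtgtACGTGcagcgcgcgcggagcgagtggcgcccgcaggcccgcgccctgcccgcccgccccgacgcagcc
P4ha2: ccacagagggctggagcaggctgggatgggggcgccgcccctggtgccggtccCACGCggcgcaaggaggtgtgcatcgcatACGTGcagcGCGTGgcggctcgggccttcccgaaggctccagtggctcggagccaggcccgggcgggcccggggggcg

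Glucose enters through Slc2a1 (GLUT1), the main basal glucose carrier. Slc2a1 had 22.4, 20.1 and 20.3 FPKM in R and 29.7, 26.1 and 25.2 FPKM in vehicle. The groups did not overlap, but the change did not pass (log2 change -0.35, SE 0.09, adjusted p = 0.072). Hexokinase traps glucose as its phosphate. Hk2, the inducible form that docks on mitochondria, had 12.5, 10.6 and 11.3 FPKM in R and 19.0, 16.9 and 16.0 FPKM in vehicle. All R values lay below all vehicle values, and Hk2 fell (log2 change -0.55, SE 0.10, adjusted p = 0.024). Hk1, the constitutive form, had 20.6, 22.4 and 23.2 FPKM in R and 25.5, 24.4 and 25.1 FPKM in vehicle, again without overlap, with a log2 change of -0.17 that did not pass (adjusted p = 0.24). The call of Hk2 ended without R replicate 2 or 3 or vehicle replicate 1 or 2 (adjusted p up to 0.091).

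Gpi1, which turns glucose phosphate into fructose phosphate, had 62.2, 72.05 and 59.3 FPKM in R and 90.1, 84.3 and 74.6 FPKM in vehicle, without overlap (log2 change -0.36, adjusted p = 0.11). Phosphofructokinase is the committed and most regulated step. Its liver form Pfkl had 20.7, 24.0 and 24.0 FPKM in R and 40.3, 42.2 and 31.7 FPKM in vehicle. The groups were well apart, with vehicle replicate 3 the lowest of its group, and Pfkl fell (log2 change -0.70, SE 0.13, adjusted p = 0.023). The platelet form Pfkp had 8.67, 6.70 and 6.495 FPKM in R and 10.7, 9.83 and 9.57 FPKM in vehicle, without overlap, and did not pass (log2 change -0.42, adjusted p = 0.083, or 0.047 without R replicate 1). The muscle form Pfkm had 11.9, 14.8 and 14.4 FPKM in R and 10.0, 9.92 and 12.8 FPKM in vehicle. Its value pointed the other way, with overlap, and did not pass (log2 change 0.30, SE 0.13, adjusted p = 0.21). The call of Pfkl was kept when vehicle replicate 3 was left out and ended when any other library was (largest adjusted p = 0.0898).

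In the middle of the pathway, aldolase cuts the sugar into triose phosphates. Aldoa, the muscle and ubiquitous form, had 379.8, 370.5 and 321.7 FPKM in R and 510.4, 507.2 and 436.9 FPKM in vehicle, without overlap (log2 change -0.44, SE 0.12, adjusted p = 0.07). The other entry with this symbol lay between 0.487 and 1.09 FPKM in R, against 0.587 to 0.813 FPKM in vehicle, and was too low to test. Aldoc, the brain form, had 12.5, 11.1 and 11.6 FPKM in R and 21.6, 18.5 and 14.8 FPKM in vehicle. It lay just beyond the threshold (log2 change -0.59, SE 0.14, adjusted p = 0.0503) and passed without vehicle replicate 3 (adjusted p = 0.017). Tpi1, which interconverts the triose phosphates, had 122, 145 and 123 FPKM in R and 215, 207 and 167 FPKM in vehicle. It fell without overlap (log2 change -0.58, SE 0.13, adjusted p = 0.042), and the call ended when any library but vehicle replicate 3 was left out (largest adjusted p = 0.155) and when the medians of the libraries were set equal (adjusted p = 0.051).

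Pgk1, which makes the first ATP of the pathway, had 187, 207 and 184 FPKM in R and 355, 340.6 and 272 FPKM in vehicle. It had the largest fall among the enzymes that passed (log2 change -0.73, SE 0.13, adjusted p = 0.019). Pgam1, the mutase that follows, had 199, 200.5 and 211 FPKM in R and 281, 285 and 288 FPKM in vehicle. Its replicates were the closest of all called members, and vehicle replicate 3 was the highest of its group (log2 change -0.48, SE 0.08, adjusted p = 0.018). The call of Pgk1 ended without R replicate 1 or 3 or vehicle replicate 1 or 2 (adjusted p up to 0.077), and that of Pgam1 without R replicate 1 or vehicle replicate 1 or 2 (adjusted p up to 0.083). The processed copies Pgk1-rs7 (at most 1.37 FPKM in R and 2.98 FPKM in vehicle) and Pgam1-ps2 (at most 9.98 FPKM in R and 11.6 FPKM in vehicle) were low beside their parents, though reads of near-identical copies may be shared.

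Gapdh, which oxidises the triose phosphate and is often used as a reference transcript, is uncertain in this table. It had 2.77, 2.81 and 3.20 FPKM in R and 22.4, 2.62 and 13.4 FPKM in vehicle, which stand for 249, 209 and 239 reads in R and 1582, 203 and 1105 reads in vehicle. The neighbouring enzymes had far more, such as Aldoa with at least 16923 reads in R and 25362 reads in vehicle. Vehicle replicate 2 lay with the R libraries, and the change did not pass (log2 change -1.45, SE 0.61, adjusted p = 0.2, or 0.0061 with a log2 change of -2.23 without vehicle replicate 2). Gapdh has many processed copies in the mouse genome, and how the authors counted reads shared with them is not stated in the labels. The copies named for it in the table, Gapdh-ps14 and Gapdh-ps15, had at most 0.117 FPKM.

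Enolase and pyruvate kinase close the pathway. Eno1, the ubiquitous enolase, had 160.1, 187 and 151 FPKM in R and 224, 228 and 212 FPKM in vehicle, without overlap, and did not pass (log2 change -0.42, SE 0.11, adjusted p = 0.061). It passed without R replicate 2 (adjusted p = 0.039) and with quantile normalization (adjusted p = 0.025). Its retrocopy Eno1b on chromosome 18 had 53.7, 67.8 and 54.5 FPKM in R and 46.6, 56.8 and 52.3 FPKM in vehicle, 25.1% to 26.6% of the sum of both in R and 17.2% to 19.9% in vehicle. With both summed, a choice made after seeing the data, the log2 change was -0.29 (adjusted p = 0.16). Eno2, the neuronal enolase, was low, with 2.01, 1.75 and 1.91 FPKM in R and 2.13, 2.42 and 1.75 FPKM in vehicle (log2 change -0.10, adjusted p = 0.69). Pkm, the pyruvate kinase of most tissues and the most abundant member, had 468, 508 and 485 FPKM in R and 606, 572 and 622 FPKM in vehicle. Its groups did not overlap, and the change did not pass (log2 change -0.30, SE 0.10, adjusted p = 0.11).

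**Figure D2:**
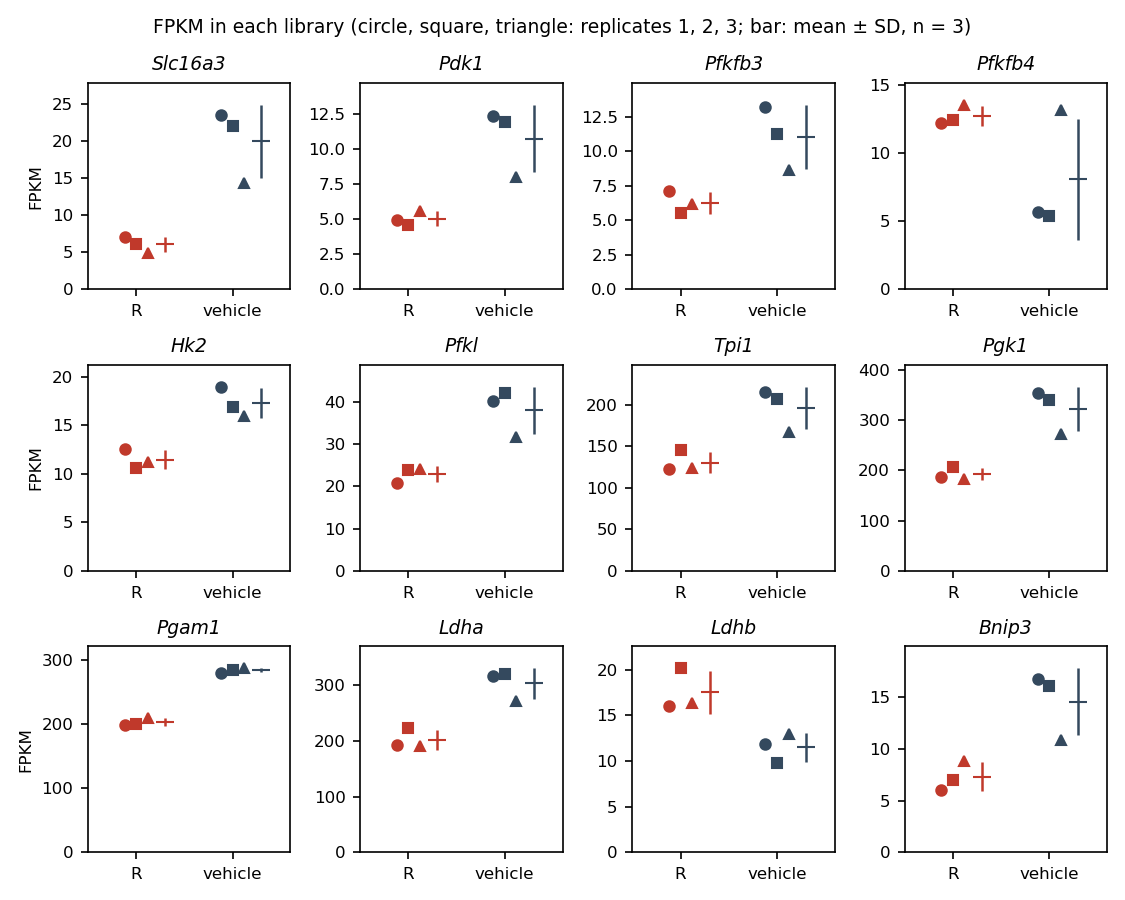
FPKM of the 11 called members and Pfkfb4 in each library, with replicates 1, 2 and 3 as circle, square and triangle and the mean ± SD (n = 3) beside them. All R libraries lie below all vehicle libraries in 10 panels and above them in that of Ldhb, and the vehicle triangle (replicate 3) of Pfkfb4, at 13.2 FPKM, lies among the R values.

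Pyruvate leaves the pathway as lactate or enters mitochondria. Slc16a3 (MCT4), the low-affinity carrier that exports lactate from glycolytic cells (chr11:120948480-120960868, GRCm38), had 7.12, 6.11 and 4.97 FPKM in R and 23.5, 22.1 and 14.4 FPKM in vehicle. The groups were far apart, at 6.07 ± 1.08 FPKM in R and 19.99 ± 4.89 FPKM in vehicle (SD, n = 3 each), and Slc16a3 fell (log2 change -1.55, SE 0.20, adjusted p = 0.006), the largest change among the 11 called members. With any single library left out the adjusted p was 0.00181 to 0.0325. Slc16a1 (MCT1), the carrier for lactate in either direction, had 4.54, 5.25 and 5.35 FPKM in R and 7.72, 5.88 and 7.69 FPKM in vehicle. It was lower without overlap and did not pass (log2 change -0.42, SE 0.12, adjusted p = 0.094). Pdk1, the kinase that shuts off pyruvate dehydrogenase, had 4.92, 4.57 and 5.63 FPKM in R and 12.3, 11.9 and 8.01 FPKM in vehicle. It fell (log2 change -0.94, SE 0.16, adjusted p = 0.021) and lost its call without R replicate 1 or 2 or vehicle replicate 1 or 2 (largest adjusted p = 0.0723).

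The lactate dehydrogenase subunits moved in opposite directions. Ldha, the subunit known to favour the making of lactate, had 193, 223 and 191 FPKM in R and 317, 321 and 272 FPKM in vehicle and fell (log2 change -0.58, SE 0.11, adjusted p = 0.028). Ldhb, the heart subunit known to favour its use, had 16.0, 20.2 and 16.3 FPKM in R and 11.8, 9.79 and 12.9 FPKM in vehicle and rose (log2 change 0.57, SE 0.13, adjusted p = 0.0495). The call of Ldha ended without R replicate 1 or 3 or vehicle replicate 1 or 2 (adjusted p up to 0.12), and that of Ldhb when any library but vehicle replicate 3 was left out (largest adjusted p = 0.141). Because FPKM is per length, the 2 levels can be set side by side. Ldhb made up 7.95% ± 0.32 of the summed FPKM of both in R and 3.70% ± 0.80 in vehicle (SD, n = 3 each). The shares did not overlap, at 7.68% to 8.30% in R and 2.96% to 4.54% in vehicle, and the sum itself was 220 ± 20.3 FPKM in R and 315 ± 26.3 FPKM in vehicle.

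Other steps also differed in the mix of their isozymes. Pfkl made up 52.2% ± 1.73 of phosphofructokinase FPKM in R and 64.3% ± 4.97 in vehicle. Pfkm made up 31.1% ± 2.02 in R and 18.7% ± 4.27 in vehicle, and Pfkp 16.7% in R and 17.0% in vehicle, with overlap (mean ± SD, n = 3 each). The shares of Pfkl and Pfkm did not overlap between the groups, and vehicle replicate 3, at 58.7% Pfkl and 23.6% Pfkm, was nearest to R. Of Hk1, Hk2 and Hk3 the most abundant was Hk3, the form of myeloid cells and no member of the list, with 52.0, 53.5 and 57.7 FPKM in R and 161, 131 and 125 FPKM in vehicle. Hk3 fell (log2 change -1.33, SE 0.11, adjusted p = 0.0011) and was called whichever library was left out. It held 61.8% ± 0.77 of hexokinase FPKM in R and 76.6% ± 1.59 in vehicle. The share of Hk1 was 25.1% ± 0.86 in R and 13.9% ± 1.37 in vehicle, and that of Hk2, whose level fell, 13.1% ± 1.45 in R and 9.54% ± 0.27 in vehicle. The summed hexokinase level was 87.9 ± 3.71 FPKM in R and 181 ± 20.9 FPKM in vehicle. For aldolase and enolase the shares overlapped between the groups, with Aldoc at 3.19% ± 0.28 in R and 3.62% ± 0.41 in vehicle and Eno2 at 1.14% ± 0.18 in R and 0.94% ± 0.11 in vehicle. These shares are descriptions without a test.

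**Figure D3:**
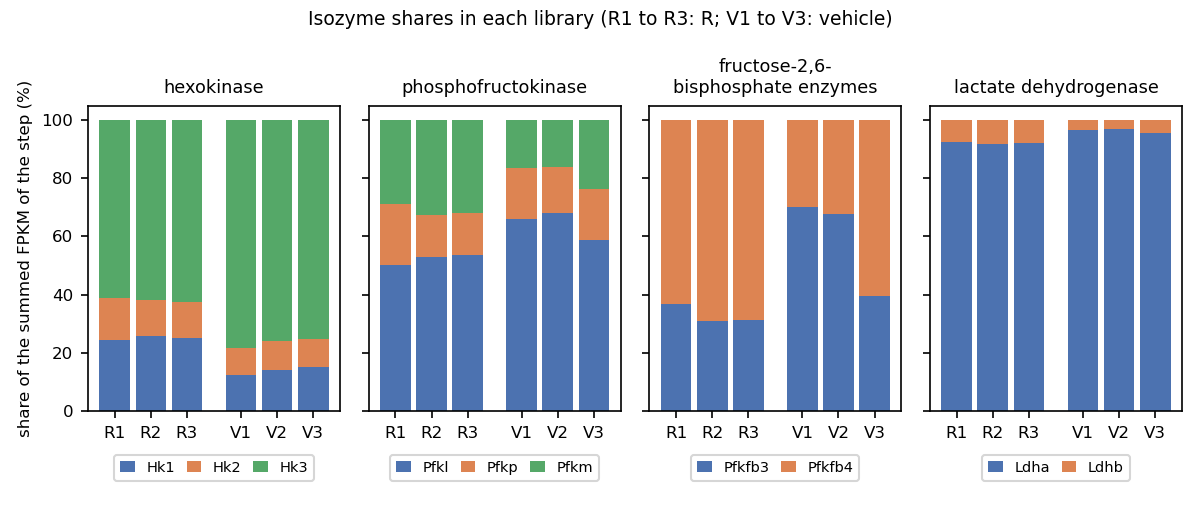
Share of the summed FPKM of a step held by each isozyme, in percent, for each R library (R1 to R3) and each vehicle library (V1 to V3). Hk3 and Pfkl take smaller shares in R and Ldhb a larger one, and for Pfkfb4 vehicle replicate 3 (60.4%) lies near the R libraries.

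Pfkfb3 and Pfkfb4 encode bifunctional kinase and phosphatase enzymes that set the level of the strongest activator of phosphofructokinase. Pfkfb3, the form with the highest kinase activity and a known HIF and inflammatory target, had 7.10, 5.54 and 6.15 FPKM in R and 13.2, 11.2 and 8.64 FPKM in vehicle. It fell without overlap (log2 change -0.71, SE 0.16, adjusted p = 0.042), and the call ended when any library but vehicle replicate 3 was left out (largest adjusted p = 0.129). Pfkfb4 had 12.2, 12.4 and 13.5 FPKM in R and 5.67, 5.36 and 13.2 FPKM in vehicle. Vehicle replicate 3 lay within the R values and the other vehicle libraries far below, and the change did not pass (log2 change 0.70, SE 0.29, adjusted p = 0.2). Without vehicle replicate 3 it was 1.07 and passed (adjusted p = 0.0029). The sum of the pair was 19.0 ± 0.89 FPKM in R and 19.1 ± 2.62 FPKM in vehicle, and Pfkfb4 made up 63.2% to 69.2% of it in R and 30.0%, 32.3% and 60.4% in vehicle replicates 1, 2 and 3.

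**Figure D4:**
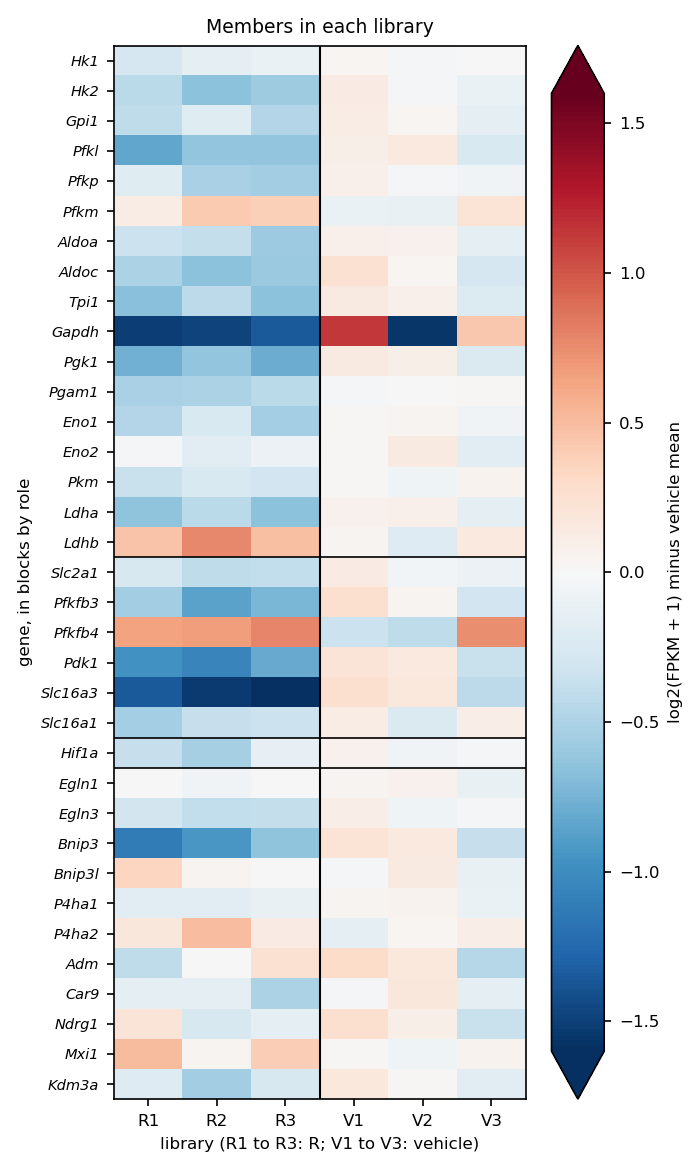
Each tested member in each library as log2(FPKM + 1) minus the vehicle mean, with members in blocks by role, R libraries left and vehicle libraries right, and colours that saturate at the ends of the scale. The enzyme block is mostly blue in all R libraries (median -0.43, -0.42 and -0.56) and faintly so in vehicle replicate 3 (-0.10). The rows of Pfkm and Ldhb go the other way in R, and the row of Gapdh differs from its neighbours.

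No transcript of the HIF system itself passed the test. Hif1a, the oxygen-regulated alpha subunit, had 16.6, 14.7 and 19.7 FPKM in R and 22.8, 20.9 and 21.4 FPKM in vehicle. It was lower without overlap and did not pass (log2 change -0.34, SE 0.11, adjusted p = 0.12). Egln1 (PHD2), the main hydroxylase that marks HIF for destruction and itself a HIF target, had 23.6, 22.6 and 23.8 FPKM in R and 24.4, 24.8 and 21.7 FPKM in vehicle. The groups overlapped, and the 95% interval of the log2 change ran from -0.22 to 0.18. Egln3 (PHD3), a strongly inducible relative, was low, with 0.846, 0.71 and 0.728 FPKM in R (49, 34 and 35 reads) and 1.14 to 1.43 FPKM in vehicle (65, 57 and 64 reads). It was lower without overlap and did not pass (log2 change -0.36, adjusted p = 0.13). Egln3 passed the filter only through the vehicle libraries, so its lack of overlap was fixed by the filter. Adding 1 to the FPKM shrinks the change of so low a gene. With 0.1 added instead, the log2 change of Egln3 was -0.65 and still did not pass in limma (adjusted p = 0.15). The median of the HIF targets outside glycolysis was then -0.09 and that of the enzymes -0.47. Of the 10 other tested genes of HIF subunits and oxygen sensing, 0 passed in limma and 1 had an unadjusted p under 0.05. That gene was Cited2, a HIF-induced antagonist of HIF, with 119, 153 and 136 FPKM in R and 101, 105 and 88.5 FPKM in vehicle (log2 change 0.46, SE 0.12, adjusted p = 0.069). Arnt, Eloc and Epas1, the next by p-value, had log2 changes of -0.18, 0.14 and 0.28 (adjusted p = 0.43, 0.44 and 0.47).

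Bnip3 and Bnip3l encode related receptors that send mitochondria to autophagy. Bnip3 had 6.07, 7.02 and 8.82 FPKM in R and 16.7, 16.1 and 10.8 FPKM in vehicle. Of the 11 tested members that are HIF targets outside glycolysis, it was the one that fell (log2 change -0.89, SE 0.19, adjusted p = 0.037), and its call was lost without R replicate 1 or 2 or vehicle replicate 1 or 2 (largest adjusted p = 0.129). Bnip3l had 32.2, 25.9 and 25.2 FPKM in R and 24.8, 27.8 and 23.1 FPKM in vehicle. It overlapped between the groups and did not pass, with a 95% interval of -0.16 to 0.41.

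P4ha1 and P4ha2 encode the catalytic subunits of the hydroxylase that stabilises collagen. P4ha1 had 39.3, 39.3 and 41.0 FPKM in R and 46.0, 46.4 and 41.3 FPKM in vehicle (log2 change -0.15, 95% interval -0.35 to 0.04). P4ha2 had 13.5, 17.1 and 13.0 FPKM in R and 10.6, 12.1 and 12.7 FPKM in vehicle (log2 change 0.27, 95% interval -0.02 to 0.56). Neither pair of groups overlapped, in opposite directions, and neither passed (adjusted p = 0.3 and 0.24). Beside them Col1a1, a collagen of the stromal list, had 523, 327 and 588 FPKM in R and 127, 252 and 263 FPKM in vehicle and did not pass (adjusted p = 0.079). Col1a2 had 234, 161 and 256 FPKM in R and 77.9, 180.1 and 189 FPKM in vehicle, and Col3a1 had 19.9, 16.5 and 32.5 FPKM in R and 21.9, 33.5 and 23.6 FPKM in vehicle. Both overlapped between the groups and did not pass (log2 changes 0.62 and -0.22, adjusted p = 0.34 and 0.66).

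The remaining HIF targets were low or spread. Kdm3a, a histone demethylase, had 5.61, 4.18 and 5.36 FPKM in R and 7.54, 6.71 and 5.68 FPKM in vehicle (log2 change -0.34, adjusted p = 0.19). Car9, the carbonic anhydrase of hypoxic cells, had 2.43, 2.44 and 1.68 FPKM in R and 2.72, 3.31 and 2.45 FPKM in vehicle (log2 change -0.27, adjusted p = 0.31). Both were lower without overlap. Mxi1, an antagonist of MYC, had 7.35, 5.06 and 6.68 FPKM in R and 4.95, 4.58 and 5.08 FPKM in vehicle (log2 change 0.31, adjusted p = 0.21). Adm, the vasodilator adrenomedullin, had 3.78, 5.32 and 6.49 FPKM in R and 6.77, 6.13 and 3.61 FPKM in vehicle. Ndrg1, a stress-response gene, had 2.17, 1.29 and 1.48 FPKM in R and 2.28, 1.93 and 1.14 FPKM in vehicle. The log2 changes of Adm and Ndrg1 were both -0.06, with 95% intervals of -0.62 to 0.50 and -0.53 to 0.41 that leave sizeable changes of either sign possible. Ankrd37, a small ankyrin-repeat protein, was too low to test, with 0.627, 0.253 and 0.0719 FPKM in R (21, 7 and 2 reads) and 1.22, 1.14 and 0.877 FPKM in vehicle (32, 33 and 27 reads). All its R values lay below all its vehicle values. Counting error alone is large at such read numbers.

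The rest of the pathway and of the HIF response was counted from companion lists. Of 12 other glycolysis genes tested, Hk3 fell and 0 rose, with a median log2 change of -0.08. Of 13 genes of pyruvate entry into mitochondria 0 passed, with 3 at an unadjusted p under 0.05 in limma and a median of 0.06. Their smallest p-values belonged to the kinases Pdk2 (log2 change 0.40, adjusted p = 0.093) and Pdk4 (0.51, adjusted p = 0.31), the phosphatase Pdp2 (-0.31, adjusted p = 0.13) and pyruvate carboxylase Pcx (0.44, adjusted p = 0.19). Of 9 pentose phosphate genes 0 passed in limma and 1 had an unadjusted p under 0.05. That was G6pdx, the entry enzyme, with 60.2, 71.9 and 70.8 FPKM in R and 91.9, 86.5 and 87.7 FPKM in vehicle (log2 change -0.39, SE 0.10, adjusted p = 0.057). Taldo1, Tkt and Pgls had log2 changes of 0.20, -0.13 and 0.11. The pentose phosphate list had 1 call with the stricter filter and 1 with quantile normalization.

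Of 31 other tested HIF targets outside glycolysis, 3 fell (9.7%) and 3 rose (9.7%), and the list median was -0.05. Over all tested genes 4.43% fell and 2.39% rose. Hmox1, heme oxygenase, had 797, 681 and 665 FPKM in R and 432, 425 and 456 FPKM in vehicle and rose (log2 change 0.70, SE 0.11, adjusted p = 0.015). Edn1, the vasoconstrictor endothelin, rose at low levels of 2.89 ± 0.69 FPKM in R and 1.05 ± 0.27 FPKM in vehicle (SD, n = 3 each, adjusted p = 0.026). Plod1, a lysyl hydroxylase of collagen, fell to 41.1 ± 0.67 FPKM in R, against 56.1 ± 3.14 FPKM in vehicle (adjusted p = 0.023). Selenbp1 fell to 3.54 ± 0.36 FPKM in R, against 6.64 ± 1.18 FPKM in vehicle (adjusted p = 0.025). Nos2, the inducible nitric oxide synthase of activated macrophages, fell to 0.0104, 0 and 0.0251 FPKM in R, against 1.51, 1.34 and 4.44 FPKM in vehicle (adjusted p = 0.026). It passed the filter only through the vehicle libraries, and its call was lost without a filter and with a pseudocount of 5. Several of these genes are known to answer to other pathways as well, among them inflammatory and oxidative stress signals. Hmox1 lost its call without vehicle replicate 1 or 2 (adjusted p up to 0.069), Nos2 with any 1 of the R libraries left out (0.084), and Edn1 without R replicate 1 or 2 or vehicle replicate 1 or 2 (0.088). Plod1 lost it without R replicate 1 or 3 or vehicle replicate 1 or 2 (0.098), and Selenbp1 with any library but vehicle replicate 3 left out (0.0898).

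**Figure D5:**
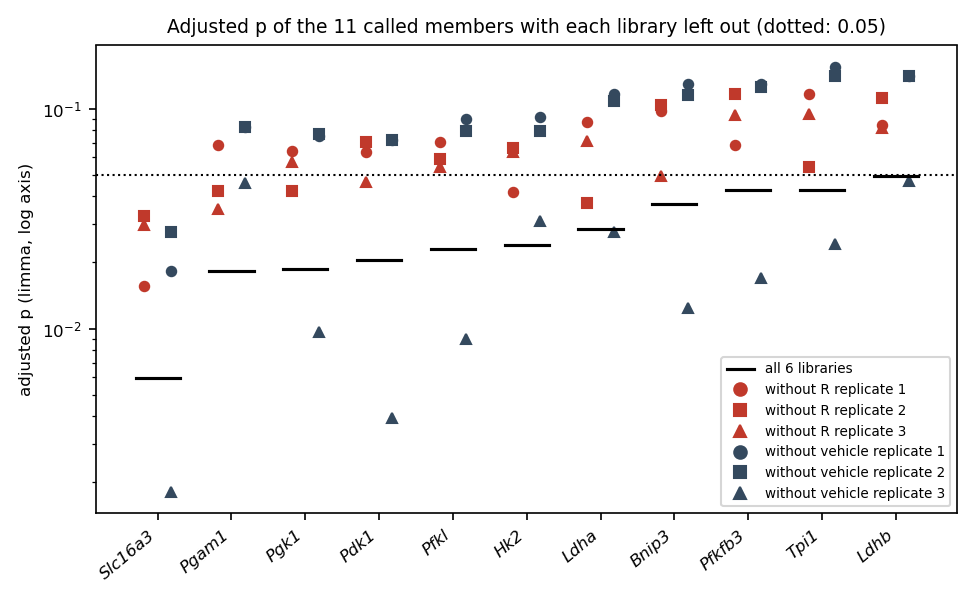
Adjusted p from limma (log axis) of the 11 called members with all 6 libraries (line) and with each library left out (red for R, dark for vehicle, by replicate). Slc16a3 stays under the dotted threshold of 0.05 in every fit (0.00181 to 0.0325), and the other 10 cross it without vehicle replicate 1 or 2.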

How the data were processed

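The authors deposited 1 table of FPKM for all genes and samples, per the file headers. The submitters' processing notes name GRCm38 (mm10) and edgeR 3.18.1. The aligner, the read counter, the strandedness and the annotation are not named in the labels. An incomplete line of the table (1 in all) was dropped. Symbols and exon lengths came from GENCODE M21 on GRCm38. Depth was estimated from FPKM times exon length, which gave whole reads within 0.02 for 98.3% to 98.4% of values of up to 20 reads. Such read numbers cover counting error only.

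Groups and replicate numbers came from the sample titles. Log2(FPKM + 1) was fitted with limma 3.58.1 (R 4.3.3), letting the prior variance follow a trend. Genes with at least 1 FPKM in at least 3 of 6 libraries were kept, and Benjamini-Hochberg adjustment ran over all 11862 of them, with a threshold of 0.05. Intervals are moderated 95% intervals. The fit was tested on simulated data. Alternatives varied the pseudocount, filter, scaling, variance trend, pairing and libraries.

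The members and lists were chosen with earlier results of these data known. All members are named, and from each companion list the genes past the threshold or, where none passed, the 4 smallest p-values. A companion gene past the threshold is not reported here. The collagens and the gene copies were named after their values were seen. Motif matches are descriptions.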

Additional observations from a re-analysis of the deposited data

How the results depend on the processing

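Without a filter on low values, 344 of all genes, 1 member (Slc16a3, lower), 0 members higher and 7 companion genes were called, against 809, 10 lower with 1 higher, and 16. The rise of Ldhb was also lost with a pseudocount of 0.1, without a variance trend and with the replicate block (0 members higher each). Leaving out 1 library gave 337 to 879 genes, 1 to 13 members (1 to 11 lower and 0 to 2 higher) and 8 to 22 companion genes. It gave a median of -0.49 to -0.37 for the enzymes and of -0.24 (without vehicle replicate 3) to 0.006 (without vehicle replicate 1) for the HIF targets outside glycolysis, which was -0.06 with all libraries, so that the sign of this second median was not settled. The enzyme median was -0.43 without Gapdh, chosen after seeing the data.

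Replicate numbers were not shown to pair the libraries, since same-numbered libraries had correlations of 0.14, -0.01 and -0.03. The replicate block gave 756 genes and 9 members, and lost Bnip3 (adjusted p = 0.073) and Ldhb (0.096), and among the companion genes Edn1 and Plod1. It called 1 gene of pyruvate entry, of which 0 were called with all libraries and no block. The companion genes Hmox1, Selenbp1, Edn1, Nos2, Sparc and Ly6a were also lost without a filter, and Sparc without a variance trend. Called macrophage markers numbered 3 without a filter, against 6 with it. The near-zero value of Egln1 changed sign with equal medians (0.0143) and ran from -0.0759 to 0.0162 when 1 library was left out. That of Adm then ran from -0.288 to 0.118 and that of Ndrg1 from -0.242 to 0.0677. Over the members' changes, 412 alternative values kept direction and call, 58 lost a call, 7 gained one and 9 changed sign. The 412 include members that were never called and stayed so. Only the 11 called members could lose a call, each over 6 fits leaving out 1 library and 8 other settings. All of them but Slc16a3 lost it in several of these. The cause of these losses, gains and sign changes was not tested. With 3 libraries a group, small changes could not be told from the spread.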
